A study of Saccharomyces cerevisiae with 236 samples.

Results

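The cisplatin screen of the PBprot collection compared pooled yeast deletion strains grown with and without a DNA crosslinking agent. Of the 236 barcode arrays in the series, 13 belonged to this comparison by their labels, 4 from pools treated with cisplatin at 200 µM in rich glucose medium (YPD) and 9 from pools in YPD without DMSO. Every strain was the haploid BY4741 (MATa his3Δ1 leu2Δ0 met17Δ0 ura3Δ0) with a single open reading frame deleted, and in both conditions it carried pHLUM, a single-copy centromeric plasmid with HIS3, LEU2, URA3 and MET17, which restores growth without amino acid or nucleotide supplements. YPD supplies those nutrients and so does not select for the plasmid. All pools were grown for 5 generations, and per the study's methods the control of cisplatin held 2% water as solvent. The dose was chosen on wild-type diploid BY4743, either auxotrophic or carrying pHLUM, and not on the haploid. Each deletion is marked by an uptag and a downtag, short barcodes on either side of the drug resistance cassette, whose hybridization intensity follows the abundance of the strain in the pool.

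The fitness defect (FD) score of a strain was the median log2 intensity of its tag over the YPD arrays minus its log2 intensity in a cisplatin array, so that a positive score means fewer cells of that strain after growth in cisplatin, and the score given is the median over the 4 cisplatin arrays with its SD. Of the 5179 strains on the array, 4132 had a tag present in all 9 YPD arrays and were tested. Calls required an FD score of 1 or more together with an adjusted p under 0.05 (limma, Benjamini–Hochberg over the 4132 strains). The study's own list of screens counts fewer cisplatin arrays for this collection than the labels do, and the labels were followed. The labels do not say whether arrays of a group came from separate cultures, and p-values measure only the spread among arrays. That spread is a variance per strain shared by all groups of the fit, which held 34 PBprot arrays of 7 groups. It is not the spread of the cisplatin arrays alone, which the SD beside a score gives. For the RAD5 strain that SD was 1.68, and the SE of the fitted difference was 0.336.

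Cisplatin binds to neighbouring purines in DNA and leaves mostly crosslinks within a strand, with a smaller share that join both strands. In budding yeast the nucleotide excision repair proteins cut out the damaged stretch, while postreplication repair and translesion polymerases let a replication fork pass a lesion that is still there. Crosslinks between strands also need dedicated nucleases, and the breaks made when forks meet them are mended by homologous recombination.

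The arrays did not stand equally close to each other. YPD replicate 1 and cisplatin replicate 1 had mean correlations of 0.88 and 0.87 with the other YPD arrays, against 0.94 to 0.96 for the other 11 arrays, and correlated at 0.97 with each other. The median SD of a strain over the YPD arrays was 0.22. A tag counted as present above a log2 intensity of 7.70, the midpoint at which the mixture fitted to the YPD arrays assigns a tag to the present component, whose mean was 9.54, rather than to the background component, whose mean was 6.02. An FD score is therefore capped by the distance between a strain's YPD level and background.

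In cisplatin 58 of the 4132 strains were called as depleted (1.40% of strains tested), and 0 were called by limma as enriched at an FD score of -1 or below, where 4 strains had an unadjusted p under 0.05. Without the threshold on the FD score, 3.24% of strains were lower and 39 strains (0.944%) were higher at an adjusted p under 0.05. The FD scores of the 58 strains ran from 1.00 to 3.63 with a median of 1.59, against a median of -0.07 over all strains tested, and 16 were at least 2. DNA repair strains made up most of them. The 8 lists of repair and checkpoint genes held 32 of the 58, other lists of genes held 4 more, and 22 were in no list. Each of the 8 lists had only 3 to 14 strains among the 4132 tested. The lists were chosen with earlier results of these data known, so these counts only describe the called strains. A stricter rule, by which every tag of a strain had to be present, left 2245 strains, of which 27 were called, all of them among the 58.

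**Figure D1:**
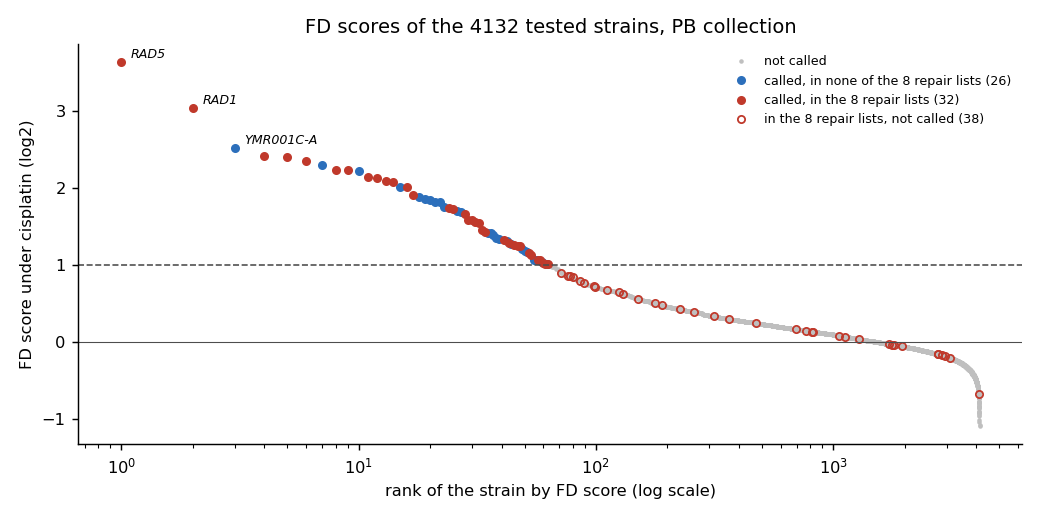
FD scores of all 4132 strains (y axis, log2 units) in rank order from the most to the least depleted (x axis, log scale), with called strains in colour (red in the 8 repair lists, blue outside them), open red circles for repair strains that were not called and a dashed line at an FD score of 1. The called strains span 1.00 to 3.63 and the bulk of the collection lies near the median of -0.07.

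The RAD5 strain gave the highest FD score. RAD5 encodes a helicase and ubiquitin ligase that extends ubiquitin chains on PCNA, the sliding clamp, at stalled forks. Its uptag ran from 10.19 to 10.72 with a median of 10.27 over the 9 YPD arrays, and read 8.87, 7.41, 5.88 and 5.07 in cisplatin replicates 1 to 4. No cisplatin array reached the lowest YPD array, and 3 of the 4 were below the presence threshold. The FD score was 3.63 ± 1.68 (SD, n = 4) with an adjusted p of 3.77e-09. RAD1, the nuclease subunit that cuts on the 5′ side of a lesion, followed. Its uptag ran from 9.78 to 10.60 (median 10.30) in YPD and read 9.25, 7.24, 7.31 and 6.65 in cisplatin. The groups did not overlap, replicate 1 was the least depleted, and the FD score was 3.03 ± 1.13 (adjusted p = 6.04e-09).

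**Figure D2:**
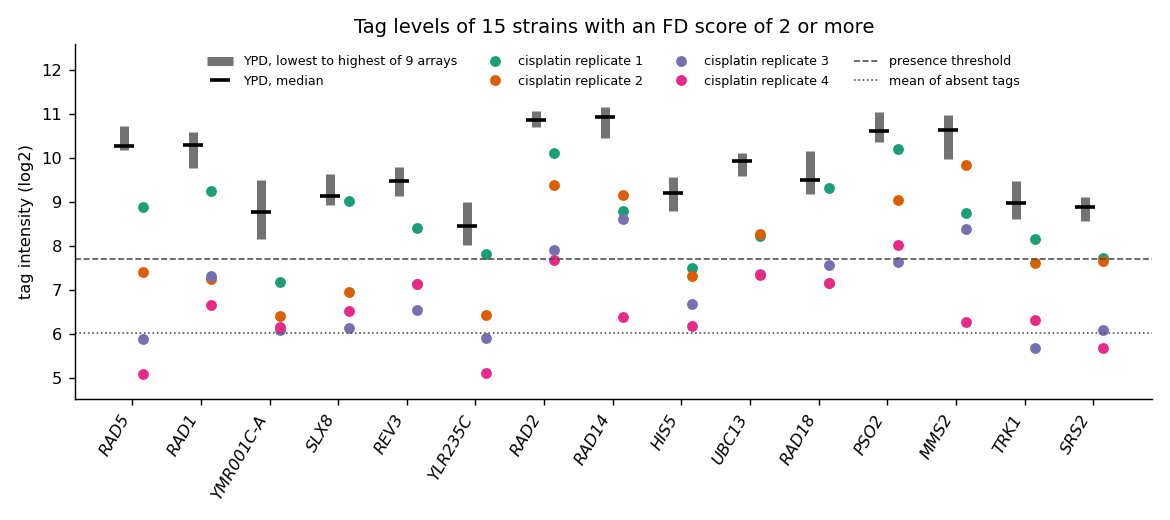
Log2 intensity (y axis) of the tag used for 15 of the strains with an FD score of at least 2 (x axis). Grey bars span the 9 YPD arrays with their median as a dash, coloured points are the 4 cisplatin replicates, and the lines mark the presence threshold of 7.70 (dashed) and the background mean of 6.02 (dotted). RAD5 fell from a YPD median of 10.27 to between 5.07 and 8.87, and in most strains cisplatin replicate 1 was nearest to the YPD arrays.

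Among the 58 strains, 31 had every cisplatin array below every YPD array, a pattern seen in 59 of the 4132 strains (1.43%). The tag fell below the presence threshold in at least 1 cisplatin array for 47 strains and in all 4 for YMR001C-A and HIS5. The size of the response differed among the cisplatin arrays. The median FD score of the called strains was 0.89 in replicate 1, 1.23 in replicate 2, 1.96 in replicate 3 and 2.14 in replicate 4, while the medians over all strains were -0.17, -0.06, -0.03 and -0.07. An FD score of at least 1 was reached by 28, 37, 55 and 58 of the 58 strains in those replicates, and 49 strains had a score above 0 in all 4. With cisplatin replicate 1, 2, 3 or 4 left out, 65, 70, 49 and 44 strains were called as depleted. Without YPD replicate 1 and cisplatin replicate 1, an alternative added after the data were seen, 65 strains were called and 56 of the 58 were among them. The 2 lost were BDF1 (adjusted p = 0.0862) and RTT107 (FD score 0.91).

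Nucleotide excision repair was represented by 14 tested strains, of which 5 were called (35.7%, against 1.40% of all strains tested). Their median FD score was 0.77. Called were RAD1, RAD2, RAD14, RAD4 and RAD10, which recognize the lesion or cut the strand around it. RAD2, the nuclease of the 3′ side, ran from 10.70 to 11.07 (median 10.88) in YPD and read 10.11, 9.38, 7.91 and 7.69 in cisplatin. All 4 values were below the YPD range, with an FD score of 2.23 ± 1.17 (adjusted p = 1.49e-07). RAD14, the damage-binding homologue of human XPA, ran from 10.45 to 11.16 (median 10.93) in YPD and read 8.80, 9.15, 8.60 and 6.37 in cisplatin. Its groups did not overlap either, and replicate 4 was far below the other 3 (FD score 2.23 ± 1.26, adjusted p = 3.77e-09). RAD4, the XPC homologue that first contacts damage, had a score of 1.74 ± 1.43, and RAD10, the partner of RAD1, had 1.72 ± 0.85.

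The remaining excision repair strains showed smaller scores. RAD23, which binds RAD4, had an FD score of 1.25 ± 0.80 but an adjusted p of 0.0583. In cisplatin replicate 2 it stood at 11.03, within the YPD range of 9.73 to 11.26, and the other 3 arrays were between 9.33 and 9.57. Without that array its score was 1.31 (adjusted p = 0.000753) and it was called. RAD7, RAD16 and ELC1, whose products form the complex that searches transcriptionally silent DNA, were lower at an adjusted p under 0.05 with FD scores of 0.71, 0.78 and 0.48. The TFIIH subunit TFB5 was also lower, at 0.76 (adjusted p = 0.0442), and was called without cisplatin replicate 1 or replicate 2 (FD score 1.02 in both). RAD26, the factor that couples repair to transcription, had a score of 0.24 ± 0.13 (adjusted p = 0.34), with cisplatin values of 10.43 to 10.70 inside the YPD range of 10.41 to 10.93. MET18, an iron-sulfur assembly factor, had 0.72 (adjusted p = 0.178), and RAD28 and RAD34, the homologues of human CSA and of RAD4, had -0.06 and -0.04 and did not pass the test. DEF1, which acts beside RAD26, had no tag present.

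Postreplication repair and translesion synthesis gave the highest share of calls among the lists, 7 of 8 tested strains (87.5%, against 1.40% of all strains). The median FD score was 2.10. Besides RAD5 they were REV3, UBC13, RAD18, MMS2, REV1 and POL32. REV3, the catalytic subunit of polymerase zeta, ran from 9.15 to 9.80 (median 9.48) in YPD and read 8.40, 7.13, 6.55 and 7.14 in cisplatin. The groups were apart in every array (FD score 2.35 ± 0.78, adjusted p = 3.77e-09). UBC13, the conjugating enzyme that builds ubiquitin chains together with MMS2, ran from 9.59 to 10.12 (median 9.93) in YPD and read 8.22, 8.28, 7.36 and 7.33 in cisplatin. The groups did not overlap, the FD score was 2.13 ± 0.52, and the adjusted p of 1.47e-13 was the smallest of all strains tested.

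RAD18, the ligase that attaches the first ubiquitin to PCNA, ran from 9.18 to 10.17 (median 9.49) in YPD and read 9.32, 7.16, 7.57 and 7.16 in cisplatin. Replicate 1 lay within the YPD range and the other 3 arrays were far below it (FD score 2.13 ± 1.03, adjusted p = 3.67e-06). MMS2 had a score of 2.08 ± 1.5, with 6.25 in replicate 4 against 8.38 to 9.85 in the others. REV1, which inserts cytosine opposite lesions and recruits other translesion polymerases, ran from 10.01 to 10.67 in YPD and read 9.12, 7.64, 8.99 and 9.14 in cisplatin (FD score 1.45 ± 0.72, adjusted p = 1.62e-07). POL32, a subunit of polymerases delta and zeta, read 8.77, 8.09, 6.07 and 7.00 against a YPD range of 8.54 to 9.47, so that replicate 1 overlapped the controls (FD score 1.43 ± 1.19, adjusted p = 0.000778). Its call was lost without cisplatin replicate 3 or replicate 4, where the score was 0.89.

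RAD30, which encodes polymerase eta, was the tested strain of the list that was not called. It stood at 9.98, 10.04, 10.31 and 10.24 in cisplatin and at 9.69 to 10.26 in YPD, with a median of 9.96. The groups overlapped and the FD score was -0.18 ± 0.15 (adjusted p = 0.469). RAD6 and REV7, the partners of RAD18 and REV3, had no tag present.

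**Figure D3:**
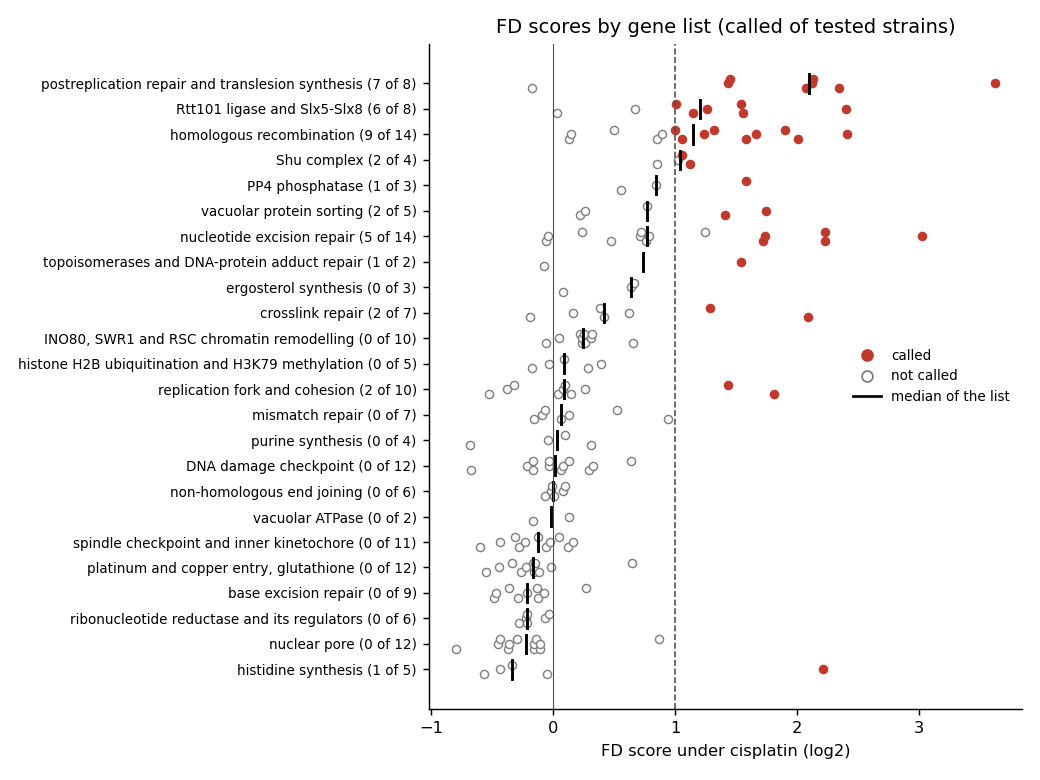
FD score (x axis, log2 units) of every tested strain of each list of genes (y axis), with called strains marked and the median of each list as a bar. Postreplication repair has the highest median at 2.10, and checkpoint, mismatch repair, base excision repair and end joining strains lie near 0 with 0 called.

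Among strains for crosslink repair, 2 of 7 were called (28.6%, against 1.40% of all strains) and the median FD score was 0.42. PSO2 encodes the nuclease dedicated to crosslinks between strands. Its downtag ran from 10.37 to 11.05 (median 10.63) in YPD and read 10.21, 9.05, 7.63 and 8.02 in cisplatin. All 4 arrays were below the YPD range, replicate 1 by little, at an FD score of 2.09 ± 1.16 (adjusted p = 6.95e-07). CHL1, a helicase of sister chromatid cohesion, had a score of 1.29 ± 1.30 (adjusted p = 0.0029) and an adjusted p of 0.0651 without cisplatin replicate 3. The nuclease scaffold SLX4 was lower by less than the threshold, at 0.62 ± 0.18 (adjusted p = 0.000537), with no overlap between its groups. The FANCM-like helicase MPH1 and its partner MHF2 scored 0.39 and 0.42 with adjusted p of 0.0637 and 0.166. MHF1, the other MHF partner, had -0.19 and SAW1, which recruits RAD1 to recombination flaps, had 0.16 ± 1.00, and neither passed the test. EXO1 had no tag present.

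Homologous recombination had 14 tested strains of 13 genes, with 9 called (64.3%, against 1.40% of all strains) and a median FD score of 1.15. SRS2, a helicase that restrains recombination, ran from 8.56 to 9.12 in YPD and read 7.73, 7.66, 6.08 and 5.68 in cisplatin (FD score 2.01 ± 1.06, adjusted p = 6.45e-08). Without cisplatin replicate 3 or 4 the score was 1.22, and the strain was still called. RAD55 and RAD57 form a dimer that promotes strand exchange and had scores of 1.90 ± 0.95 and 1.32 ± 0.87. The RecQ helicase SGS1, which dissolves joint molecules, had 1.66 ± 1.01.

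The end-processing factors SAE2 and RAD50 were called with wide spreads. SAE2 read 7.33, 10.02, 8.21 and 8.43 in cisplatin against 9.50 to 10.29 in YPD, so that replicate 2 lay inside the controls and replicate 1 was the lowest (FD score 1.58 ± 1.12, adjusted p = 0.00292). Without cisplatin replicate 1 its adjusted p was 0.0544. RAD50 read 8.86, 6.26, 7.11 and 7.25 against 7.98 to 9.03 (FD score 1.24 ± 1.09, adjusted p = 0.0214), and its adjusted p was 0.135, 0.0963 and 0.0851 without cisplatin replicate 2, 3 and 4. RAD59, which anneals single strands, had the lowest score of all called strains at 1.00 ± 0.96 and an adjusted p of 0.0951 without cisplatin replicate 4.

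MUS81 and MMS4 encode a nuclease that cuts joint molecules. MMS4 had 2 strains on the array, of which 1 was called at an FD score of 1.06 ± 0.84 and the other had 0.85 ± 0.66 (adjusted p = 0.00117). The call of the former was lost without cisplatin replicate 3 or 4 (FD score 0.53), and the latter was called without replicate 1 or 2 (1.38). MUS81 lay just below the threshold at 0.89 ± 0.22 (adjusted p = 6.31e-05), read 8.19 to 8.67 against 9.05 to 9.50 in YPD without overlap, and was called without cisplatin replicate 1 or 3 (1.01). The nucleases SLX1 and YEN1 and the translocase RDH54 had scores of 0.50, 0.14 and 0.13 and did not pass the test. MRE11, XRS2, RAD52, RAD54, TOP3 and RMI1 had no tag present and could not be assessed.

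The Shu complex promotes recombination at damaged forks, and 2 of its 4 strains were called (50.0%, against 1.40% of all strains). CSM2 read 7.82, 6.93, 7.58 and 7.63 in cisplatin against 8.31 to 9.04 in YPD, without overlap (FD score 1.06 ± 0.39, adjusted p = 3.14e-06), and lost its call after quantile normalization (0.87). SHU1 had 1.12 ± 0.78 and lost its call without cisplatin replicate 3 or 4 (0.67). PSY3 was lower at 0.85 ± 0.38 (adjusted p = 0.000778). SHU2 had a similar median score of 1.03 but an SD of 1.63 and an adjusted p of 0.315, with cisplatin values from 7.78 to 11.70 and YPD values from 9.12 to 11.41. Of the PP4 phosphatase, which removes phosphate from checkpoint targets, the catalytic subunit PPH3 was called at 1.59 ± 0.64 (adjusted p = 2.08e-06). Its regulatory subunit PSY2 was lower at 0.84 (adjusted p = 0.000715), and PSY4 had 0.56 (adjusted p = 0.136).

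A further list held the RTT101 ubiquitin ligase, the SUMO-directed ligase SLX5–SLX8 and other factors placed with them, such as WSS1 and ESC2. Of its tested strains 6 of 8 were called, and the median FD score was 1.20. SLX8 ran from 8.93 to 9.65 (median 9.13) in YPD and read 9.01, 6.94, 6.12 and 6.51 in cisplatin. Replicate 1 was inside the YPD range and the other 3 were far below it (FD score 2.40 ± 1.29, adjusted p = 7.83e-06). Its partner SLX5 had 1.56 ± 1.5. WSS1, a protease for proteins trapped on DNA, had 1.54 ± 0.87, and ESC2, a SUMO-like fork factor, had 1.26 ± 0.51. The cullin RTT101 and the scaffold RTT107 had 1.15 ± 0.98 and 1.01 ± 0.43. RTT101 was at 0.66 without cisplatin replicate 3 or 4, and RTT107 at 0.90 without replicate 1 or 4 and between 0.96 and 0.97 without YPD replicate 2, 4, 6, 7 or 9. MMS1, the adaptor of RTT101, had 0.67 (adjusted p = 0.191), the translocase ULS1 had 0.03 (adjusted p = 0.779), and MMS22, RTT109 and ASF1 had no tag present.

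For the DNA damage checkpoint 0 of 12 tested strains were called by limma, where 1.40% of all strains tested were, and the median FD score was 0.02 against -0.07 over all strains. At an unadjusted p under 0.05, 1 strain was lower and 1 higher. CSM3, which protects paused forks, was lower at 0.64 ± 0.20 (adjusted p = 0.0366). The clamp loader RAD24 had 0.29 (adjusted p = 0.426), the kinase TEL1 had 0.13 (adjusted p = 0.548), and both MRC1 strains were at 0.07 and 0.08. TOF1, the partner of CSM3, had 0.33, the kinase CHK1 -0.03, the repressor RFX1 -0.04, the clamp subunits DDC1 and RAD17 both -0.16, and SML1, an inhibitor of ribonucleotide reductase, -0.21, and none of these passed the test. MEC3, of the checkpoint clamp, had the lowest score of the list at -0.68 ± 0.62 (adjusted p = 0.229). RAD9 and DUN1 had no tag present. Since several checkpoint genes are essential or had no tag present in all YPD arrays, the list covers the pathway only in part.

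Other genome maintenance lists were read against the same 1.40%. Of 10 tested strains for replication forks and cohesion, CTF4 and POL32 were called. CTF4, which links the replicative helicase to polymerase alpha, read 8.62, 5.40, 7.15 and 5.02 against 7.78 to 8.78 in YPD (FD score 1.81 ± 1.66, adjusted p = 0.0106) and had a score of 0.94 without cisplatin replicate 2 or 4. CTF4 was also the 1 called strain of 65 tested (1.54%, close to the 1.40% of all strains) from the study's list of strains that depend on the plasmid in dropout media, whose median score here was -0.12. No strain was called among 7 for mismatch repair, 9 for base excision repair, 6 for non-homologous end joining and 6 for ribonucleotide reductase, and at 1.40% lists of these sizes would hold less than 1 call each. At an unadjusted p under 0.05 limma found 2 lower for mismatch repair, 4 higher for base excision repair, 1 higher for ribonucleotide reductase and 0 for end joining. MSH6, which recognizes mismatches, came nearest at 0.95 ± 0.77 (adjusted p = 0.0117). The lists for chromatin remodelling (10 tested), H2B ubiquitination (5), purine synthesis (4), the vacuolar ATPase (2), ergosterol synthesis (3), the spindle checkpoint and inner kinetochore (11) and the nuclear pore (12) also held no call, and between 0 and 2 strains of each were lower at an unadjusted p under 0.05.

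MAG1, the glycosylase that removes alkylated bases, was higher in cisplatin on the tag used. It ran from 9.57 to 9.94 (median 9.78) in YPD and read 10.34, 10.22, 10.30 and 10.19 in cisplatin. Every cisplatin array was above every YPD array, the FD score was -0.48 ± 0.07, and the adjusted p was 0.000715, so that it was higher by less than the threshold. The other tag of the MAG1 strain, also present, had a score of -0.09. NPR2, a regulator of TORC1 from the list of platinum entry and reported resistance genes, was higher by a like amount (-0.44 ± 0.14, adjusted p = 0.0144), and none of the 12 strains tested from that list was called, with 1 lower and 4 higher at an unadjusted p under 0.05. YLR184W, MRP20, KAP123 and LSM7 had the most negative scores, from -1.09 to -1.01, with adjusted p of 0.0673 to 0.221.

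HIS5 was the called strain of histidine synthesis. It encodes the aminotransferase that acts on imidazole acetol phosphate. Its downtag ran from 8.79 to 9.58 (median 9.21) in YPD and read 7.49, 7.30, 6.68 and 6.17 in cisplatin. All 4 arrays were below the YPD range and below the presence threshold (FD score 2.21 ± 0.61, adjusted p = 3.77e-09). The other 4 tested strains of the pathway had scores of -0.57 to -0.05 and none passed the test. HIS1, which catalyses the first step, had -0.05 ± 0.35 and HIS4, of a multifunctional enzyme, had -0.34 ± 0.27. The uptag of HIS5 was not present, and its reading, with a score of 0.09, gives no second measure.

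Of the strains in no list of genes, YMR001C-A had the highest score. It is a small open reading frame with no role known from the sources used here. Its uptag ran from 8.15 to 9.50 (median 8.78) in YPD and read 7.18, 6.40, 6.07 and 6.14 in cisplatin. All 4 arrays were below the YPD range, and the downtag, also present, gave a score of 1.97 beside 2.51 ± 0.51 (adjusted p = 3.77e-09). TRK1, the high-affinity potassium transporter, read 8.15, 7.62, 5.66 and 6.32 against 8.62 to 9.49 in YPD (FD score 2.02 ± 1.15, adjusted p = 4.16e-07). DOC1, a processivity subunit of the anaphase-promoting complex, had 1.89 ± 0.49. SFP1, an activator of ribosomal protein genes, had 1.85 ± 0.94, and SUR7, a protein of plasma membrane furrows, had 1.84 ± 1.15.

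MDM20, a subunit of an N-terminal acetyltransferase, had a score of 1.81 ± 1.55 and AFT1, the activator of iron uptake genes, 1.69 ± 0.47. Vacuolar traffic contributed VPS1, a dynamin-like GTPase, at 1.74 ± 1.18 and PEP3, a tethering factor at the vacuole, at 1.41 ± 0.14, the 2 called of 5 tested strains. VPS1 had 1.12 without cisplatin replicate 3 or 4. VPS9, an activator of the endosomal GTPase VPS21, was lower at 0.77 (adjusted p = 0.0465), and VPS21 and VPS41 had 0.27 and 0.22 and did not pass the test. PEP3 had the smallest SD of the called strains, with 7.93, 8.09, 7.77 and 7.82 in cisplatin against 8.85 to 9.72 in YPD, and 10 other strains of that list had no tag present. The remaining strains in no list, named after their values were seen, were BDF1, AIM10, MSL1, GPX2, SRV2, ARG1, REG1, STE7, CKB2, BMH2, BIM1, GNP1 and SIS2, with scores of 1.01 to 1.41. Among these the call was lost in at least 1 set of arrays with 1 cisplatin array left out for BDF1 (adjusted p up to 0.243), MSL1 (up to 0.0596), CKB2 (0.0931) and BIM1 (up to 0.211). It was lost through the FD score for GPX2 (0.81), BMH2 (0.88), GNP1 (0.84) and SIS2 (0.90). BDF1 was also lost without YPD replicate 2, 7 or 8 (adjusted p 0.0554 to 0.0701), BIM1 without YPD replicate 1, 3, 4 or 5 (FD score 0.98) and SIS2 without YPD replicate 2, 5, 6 or 8 (0.98). Another BIM1 strain on the array had 0.89 ± 0.45 (adjusted p = 0.0386) and was not called.

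A pair of the strains in no list had a repair gene as neighbour in systematic order. YML096W overlaps RAD10 by 6 bases in the RefSeq annotation and had 1.70 ± 1.28 (adjusted p = 0.00073), where RAD10 itself had 1.72. YLR235C had 2.30 ± 1.15 (adjusted p = 4.67e-06) and follows TOP3 in systematic order, whose own strain had no tag present. PPH3 and RAD55, both called, are direct neighbours as well. Of 82 tested strains deleted for a gene next to a called gene, 4 were called, where 1.40% of all strains were. These 4 were PPH3, RAD55, RAD10 and YML096W, which are neighbours of each other in pairs and were each counted from the other's side. Below the threshold, YBR099C, next to MMS4 in systematic order, had 0.97 ± 0.41 (adjusted p = 3.14e-06). YOR345C, next to REV1, had 0.67 ± 0.19 (adjusted p = 0.000325), and YKR073C, next to SIS2, had 0.51 ± 0.18 (adjusted p = 0.000447). For YLR235C, YBR099C and YOR345C, which had no RefSeq entry, the overlap with the neighbouring repair gene could not be computed. Whether these deletions touch the neighbouring gene was not tested.

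The second barcode of a strain gave another reading of the same cells. Both tags were present for 26 of the 58 called strains. The tag that had not been used had an FD score of at least 1 in 19 of the 26 and of at least 0.5 in 25, against 1.22% and 5.11% of the 2133 strains with both tags present in the whole collection. RAD1 had 2.78 on its downtag beside 3.03, RAD5 had 2.47 beside 3.63, UBC13 had 2.11 beside 2.13 and REV1 had 3.33 on the uptag beside 1.45. SIS2 was the strain below 0.5, at 0.24, and MMS2 had 0.98 beside 2.08. Over the 2133 strains the scores of both tags correlated at 0.64, a description across strains that share arrays and cells.

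**Figure D4:**
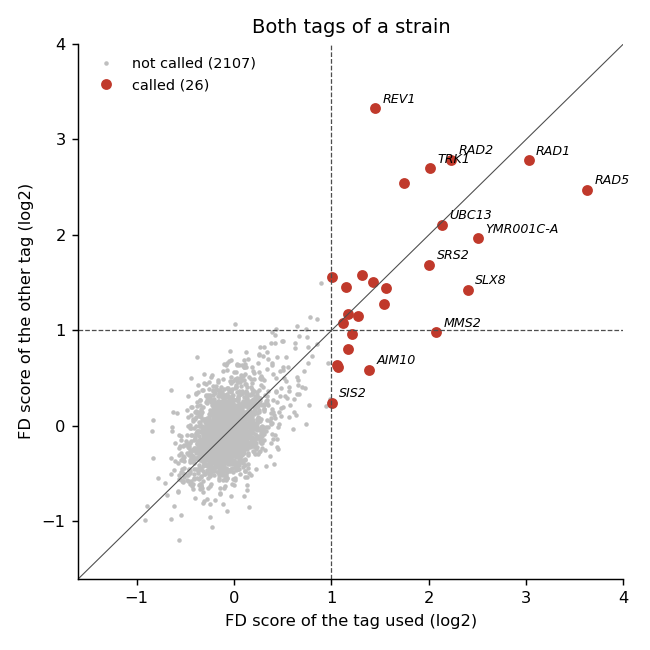
FD score of the tag used (x axis) against that of the other tag of the same strain (y axis), both in log2 units, for the 2133 strains with both tags present, with the 26 called strains marked. The called strains run from SIS2 at 0.24 on the other tag to REV1 at 3.33, and most lie above the dashed line at 1.

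The same dose of cisplatin was used on 2 other collections, YKOaux, the homozygous diploid BY4743 with its auxotrophies (3 cisplatin and 8 YPD arrays), and BCprot, haploids backcrossed to prototrophy (4 and 9 arrays). Each was compared with PBprot on tags present in both. The study gives the BCprot genotype as MATa can1Δ::STE2pr-SpHIS5 his3Δ1 lyp1Δ0, so these strains also lack the arginine and lysine transporter genes CAN1 and LYP1. The strains below were chosen by their score in PBprot, so the counts describe them. Of the 58 strains, 38 had a shared tag in YKOaux and 21 were called there, where 38 of 3583 shared strains were called (1.06%). In BCprot 43 had a shared tag and 32 were called, against 61 of 3647 (1.67%). RAD5 had an FD score of 3.63 in PBprot, 4.94 in YKOaux and 3.32 in BCprot, and RAD1 had 3.03, 2.65 and 2.56, and neither difference passed the test.

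The responses of PBprot and YKOaux differed for 11 of the 3583 strains at an adjusted p under 0.05 (0.307%), with the larger score in PBprot for 3 (0.0837%), and 3 of the 11 were called strains of PBprot. HIS5 was lower in cisplatin in PBprot and not in YKOaux, where its score was -0.09 (adjusted p = 0.837), and the fitted difference, which is one of means, was 2.44 ± 0.35 (SE, adjusted p = 7.95e-06). RAD18 and RAD57 had larger scores in YKOaux, 3.44 and 3.77, with fitted differences of -2.04 ± 0.34 (adjusted p = 0.000178) and -2.34 ± 0.41 (adjusted p = 0.000431). Their YPD medians were lower in PBprot, 9.49 against 10.24 for RAD18 and 8.03 against 9.41 for RAD57. RAD57 thus started in PBprot close to the presence threshold of 7.70, and RAD18 fell below it in 3 of 4 cisplatin arrays. Values were scaled within each collection and the background level of YKOaux is not given here, so the distance from the YPD median to background was not compared. Its part in the differences was not tested. The count of 11 rose to 20 without PBprot cisplatin replicate 2 and to 29 without YKOaux cisplatin replicate 1. RPL16A, of the large ribosomal subunit, and BSC4 were the other strains with the larger score in PBprot, 0.65 against -0.47 and 0.91 against 0.11. SOP4, PDR8, CUE1, YBL083C and RIM101 had scores of 0.48 to 0.99 in YKOaux and none above 0 in PBprot.

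Between PBprot and BCprot 27 of 3647 strains differed (0.740%), with the larger score in PBprot for 7 (0.192%), and 3 were called strains of PBprot. YMR001C-A had 2.51 in PBprot and -0.11 in BCprot (fitted difference 1.87 ± 0.40, adjusted p = 0.00387). BMH2, a 14-3-3 protein, had 1.06 and -0.34 (1.29 ± 0.22, adjusted p = 6.6e-05), and POL32 had 1.43 and 0.03 (1.40 ± 0.36, adjusted p = 0.0396). The difference of POL32 had an adjusted p of 0.332 and 0.191 without PBprot cisplatin replicate 3 and 4, and of 0.0729 to 0.105 without BCprot cisplatin replicate 1, 3 or 4. Its score in YKOaux was 3.62, and that difference did not pass the test (adjusted p = 0.349). HIS5 had no shared tag in BCprot. The 10 strains with the smallest p between these collections, UCC1, AFI1, ATG40, MAK10, YDL109C, ATE1, AAD4, VAC17, YOL075C and YDC1, all responded more in BCprot, with scores of 1.14 to 2.54 there and of -0.49 to 0.08 in PBprot. None of these 10 was depleted past the threshold in PBprot. Collections differed in construction, ploidy and array set, and in the CAN1 and LYP1 deletions of BCprot, as well as in prototrophy. These cannot be told apart.

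**Figure D5:**
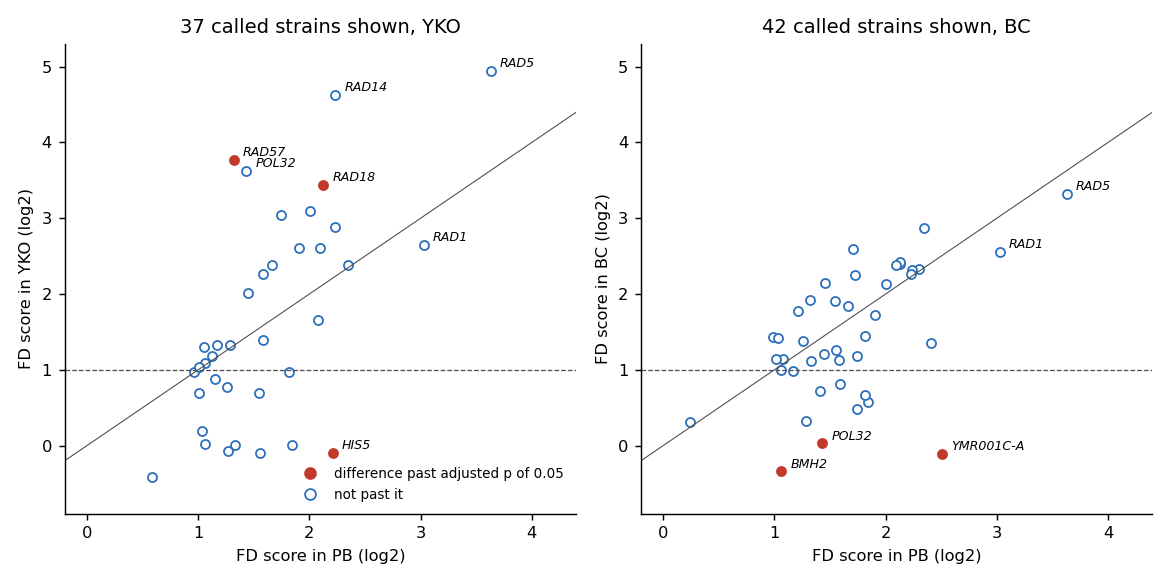
FD score under cisplatin in PBprot (x axis) against YKOaux and BCprot (y axes, log2 units) for the strains called in PBprot that had a shared tag, 37 shown for YKOaux and 42 for BCprot, with filled points where the difference had an adjusted p under 0.05 and a diagonal of equal scores. HIS5 lies at 2.21 in PBprot and -0.09 in YKOaux, and RAD57 lies at 1.32 and 3.77.

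The depletion of these strains was then set beside the other drug screens of PBprot, each against its own control of YPD with 2% DMSO (3 drug arrays and 8 control arrays). CCCP at 32 µM and FCCP at 6 µM are uncouplers of oxidative phosphorylation, and PCID 16001701 was used at 125 µM. The 3 screens share their controls. Of the 58 strains called in cisplatin, 1 was called in CCCP, 0 in FCCP and 0 in PCID 16001701, where those screens called 4.09%, 2.95% and 0.0242% of the 4132 strains. With an unadjusted p under 0.05 in place of the adjusted p the counts among the 58 were again 1, 0 and 0. Their median FD scores in those screens were -0.11, -0.09 and -0.03. Over all strains tested, 4.02% had a larger score in cisplatin than in CCCP by the test of the difference, 3.48% than in FCCP and 1.28% than in PCID 16001701. A difference of this sign can also come from a strain that was higher in the other drug. No such count is given for the 58, which were chosen by their score in cisplatin. RAD5 had scores of -0.75, -0.60 and -0.28 in these screens, and RAD1 had -0.01, 0.09 and -0.17. PEP3 was the strain called in CCCP, with 1.01 there (adjusted p = 0.00917) beside 1.41 in cisplatin, a difference that did not pass the test (adjusted p = 0.445).

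Near the threshold on the FD score the order of strains rested on small margins. RTT107 (1.01), SIS2 (1.01) and RAD59 (1.00) were just inside, and SEC28 (0.99), YBR099C (0.97), KEL2 (0.97), MSH6 (0.95) and FAR7 (0.95) passed the test on p just outside it.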

How the data were processed

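Barcodes were amplified from genomic DNA and hybridized to TAG4 arrays. The deposited values are 1 log2 intensity per tag and array, which per the study's methods the authors computed after masking artefacts and scaling uptags and downtags separately to a common median within each collection and medium; whether their batch correction (ComBat) is included is not stated, and it could narrow the spread between arrays. All columns were mapped to samples. Background was separated from signal by a Gaussian mixture with 2 components over the 9 YPD arrays. A tag was present if its posterior exceeded 0.5 in all of them, and where both tags were present the one that varied least in proportion to its mean was tested. Limma 3.58.1 (R 4.3.3) was fitted to 34 PBprot arrays of 7 groups without covariates, and figures were drawn with matplotlib 3.10.9. The fit was tested on simulated data. Differences between collections and between drugs were contrasts in the same kind of fit. Symbols came from RefSeq for 4630 of 4993 genes. Named were the 30 called strains with the highest scores, members of the 8 repair lists, called members of the other lists, and 10 strains per comparison of collections; MAG1, NPR2, MSH6, HIS1, HIS4, VPS9, VPS21, VPS41, neighbouring strains, those with the most negative scores and those near the threshold were chosen after their values were seen. The result of 1 strain is not reported here. Members and lists were chosen with earlier results of these data known. Alternatives varied the presence rule, the tag used, the scaling, the controls, the model, the thresholds and the arrays included. An array intensity carries no count, and the number of arrays limits the precision.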

Additional observations from a re-analysis of the deposited data

Results flagged for a closer look

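For each of the 58 called strains the YPD arrays and the cisplatin arrays were looked at as separate groups, and chance flags about 1 in 20 such groups. Among those reported, 5 groups held an array far from the rest. That is about as many as chance alone would flag. In YPD, replicate 1 stood at 9.65 for RAD59 (the others 8.30 to 8.91) and at 9.06 for AIM10 (9.44 to 9.72), and replicate 2 stood at 10.56 for ESC2 (9.83 to 10.12). In cisplatin, replicate 2 stood at 9.36 for MSL1 (7.86 to 8.09) and at 7.64 for REV1 (8.99 to 9.14). YPD replicate 1, which holds 2 of these values, was also the YPD array with the lowest mean correlation with the others (0.88). With flags this few and near the chance rate, no pattern is read from that.

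Responses to cisplatin that differed between collections by the test of the difference included those of RAD18 (-2.04, PBprot minus YKOaux), RAD57 (-2.34) and HIS5 (2.44), and of BMH2 (1.29, PBprot minus BCprot), POL32 (1.40) and YMR001C-A (1.87).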

How the results depend on the processing

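No called strain turned its sign in any of the 24 settings that kept the FD threshold of 1. In these, 39 of the 58 kept the call in every setting that tested them. Settings that changed the FD threshold were left out of that count. The 1.40% of strains called became 1.20% when every tag had to be present (27 strains), 0.774% at an FD threshold of 1.5 (32 strains) and 4.19% in both directions without one, and the count of 32 in the repair lists became 16 and 20 in the first and second of these. Strains whose other tag scored at least 0.5 numbered 25, and 12 at the threshold of 1.5. Leaving out 1 cisplatin array called 1.06% to 1.79% in either direction, and leaving out 1 YPD array 57 to 61 strains. Strains called as enriched, of which there were 0, numbered 4 without cisplatin replicate 2, 3 without the presence filter, 2 with pooled controls and 1 without YPD replicate 1, without YPD replicate 4 or in a fit of the cisplatin and YPD arrays alone. The 27 differences from BCprot became 13 with every tag present, and the 11 from YKOaux ranged from 8 to 29 with 1 array left out. Quantile normalization lost BDF1, RAD50, CSM2, BMH2, SIS2 and RAD59, and the fit of the cisplatin and YPD arrays alone lost CTF4, MSL1, RAD50, BIM1 and RAD59 (adjusted p 0.0576 to 0.0869). Replicate numbers were not taken to pair the arrays, since 1 of the correlations of same-numbered deviations (0.77, 0.29, 0.08 and 0.44) was under 0.1, although arrays numbered 1 and 4 correlated best with their own number. The fit with a replicate block called 57 strains (1.38%), all of the 58 but CKB2 (adjusted p = 0.0993), and 6 differences from YKOaux, of which 5 were among the 11 (HIS5, RAD18, RAD57, BSC4 and PDR8); the difference of POL32 from BCprot then had an adjusted p of 0.143. Tags near background limit how far a score can reach, and 47 called strains fell below the presence threshold in at least 1 cisplatin array.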
